A study of Mus musculus with 9 samples.

Results

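The tissue inhibitors of metalloproteinases (TIMPs) and the matrix metalloproteinases (MMPs) were examined in the choroid (CH), the retinal pigment epithelium (RPE) and the photoreceptors (PR) of the mouse eye. The members were 10 genes of 31710 on the array, Timp1 to Timp4, Mmp2, Mmp3, Mmp9, Mmp14, Mmp15 and Mmp16, taken as every probe that is not a control and carries one of these symbols. They were measured by 11 of 39429 probes, 1 for each gene and 2 for Timp2. The gene expression was measured on 9 arrays, 3 for each tissue, hybridised with RNA that was laser dissected from cryosections of eyes of untreated female C57BL/6 mice of 6 months, give or take 2 weeks by the labels. The study's methods name the J substrain C57BL/6JOlaHsd and give another age. Each sample came from 1 whole eye, and the RPE was removed before the CH was dissected. The sample was labelled with Cy5 and hybridised against a Cy3 common reference of mouse RPE/choroid RNA, in the same dye orientation on all arrays. A value is therefore given as the log2 ratio of Cy5 over Cy3, and a ratio of 0 is the level of the reference as this pair of dyes reads it.

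MMPs are zinc-dependent proteases that cut collagens, proteoglycans and other proteins of the extracellular matrix, and TIMPs bind their active site and block them. Most MMPs are secreted as inactive precursors. The membrane-type MMPs are anchored at the cell surface instead, and Mmp14 together with Timp2 is known to bind and activate the precursor of Mmp2. Bruch's membrane, the matrix layer between RPE and CH, is one of the matrices these proteins act on. Timp3 is the TIMP that binds tightly to the matrix and accumulates in Bruch's membrane, and mutations in human TIMP3 cause Sorsby fundus dystrophy.

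The promoters of Timp1 and Mmp3 are shown because these were the members that passed the test between RPE and CH. The 250 bases before the RefSeq start are printed (GRCm38.p6, both genes on the plus strand, Timp1 at chrX:20869916-20870165 and Mmp3 at chr9:7445572-7445821). Capitals mark matches on either strand to any of the motifs searched. The first was the AP-1 motif, searched as TGANTCA. For the TATA box the letters TATAAA were used. The GC box, bound by factors of the Sp family, was searched as GGGCGG. No matches overlapped in these windows.
Timp1: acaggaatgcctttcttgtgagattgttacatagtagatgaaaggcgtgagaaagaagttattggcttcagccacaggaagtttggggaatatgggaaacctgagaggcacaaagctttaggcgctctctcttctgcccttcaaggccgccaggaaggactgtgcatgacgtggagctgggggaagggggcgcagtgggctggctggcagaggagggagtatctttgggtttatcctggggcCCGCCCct
Mmp3: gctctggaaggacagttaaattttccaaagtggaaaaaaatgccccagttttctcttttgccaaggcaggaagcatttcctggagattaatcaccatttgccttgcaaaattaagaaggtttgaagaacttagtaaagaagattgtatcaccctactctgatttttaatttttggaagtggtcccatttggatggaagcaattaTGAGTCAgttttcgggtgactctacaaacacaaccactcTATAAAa
The Mmp3 window held an AP-1 match and a TATA box, and the Timp1 window held a GC box only. A promoter entry was found for 7 of the 10 members. The AP-1 motif was present in 1 of these 7 and in 6.7% of all 32851 promoter windows of this length, the TATA box in 1 of 7 and 12.4%, and the GC box in 5 of 7 and 32.7%. These matches describe the letters of the windows only.

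For Timp2 and Mmp16 the array carries a probe that crosses an intron, shown because their genomic span sets them apart from the other member probes. The Timp2 probe A_65_P12392 spans 6778 bases of the genome (mm9, minus strand, chr11:118171964-118178741), and the Mmp16 probe A_51_P195775 spans 17019 bases (mm9, plus strand, chr4:18020570-18037588). Both are 60 bases long and are printed as the scanner files give them.
Timp2 A_65_P12392: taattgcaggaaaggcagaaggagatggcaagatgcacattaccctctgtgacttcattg
Mmp16 A_51_P195775: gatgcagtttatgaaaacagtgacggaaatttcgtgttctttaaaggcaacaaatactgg
The second Timp2 probe, A_52_P540219 (chr11:118163146-118163205), lies 8758 bases from the first along the genome, further towards the 3′ end of the gene.

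Of all probes, 62.1% to 91.7% were well above background on the RPE arrays, with RPE replicate 2 the highest, and 64.8% to 71.2% on the CH and PR arrays. All 10 rod markers were higher in the PR, against RPE and CH alike. Of 10 RPE markers 7 passed as higher in the RPE over the CH and 9 over the PR. Of the same 10 markers, 9 also passed as higher in the CH over the PR. Their mean log2 ratio was 0.16 to 0.97 on the CH arrays, 1.66 to 2.07 on the RPE arrays and -2.75 to -2.68 on the PR arrays. The part of RPE RNA in the CH values of the members was not tested. Slide 1 held 2 CH and 2 RPE arrays, slide 2 held 1 array of each tissue and slide 3 held the other 2 PR arrays and no other tissue. For these 2 PR arrays slide and tissue cannot be told apart, and within a slide the PR could be compared on slide 2 only, with 1 array each. There, RPE minus PR was 3.90 at Timp2 (A_52_P540219), 1.52 at Mmp14 and 2.53 at Mmp15, and CH minus PR was 3.28 at Timp1, 4.43 at Timp2, 2.32 at Mmp2, 3.18 at Mmp3, 2.08 at Mmp14 and 2.01 at Mmp15. Rod markers were also well above background on every CH and RPE array. None of 10 endothelial markers passed the test between RPE and CH, and their mean log2 ratio was 1.29 to 1.38 on the RPE arrays and 1.18 to 1.83 on the CH arrays. In samples of dissected tissue, fewer cells of a type and less RNA per cell cannot be told apart.

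The members were mainly genes of the CH and RPE side of the tissue stack. Against the PR, 7 of the 10 were higher in the CH (Timp1, Timp2, Timp3, Mmp2, Mmp3, Mmp14 and Mmp15) and 4 were higher in the RPE (Timp2, Timp3, Mmp14 and Mmp15), and no member was lower. Between RPE and CH, 2 members were lower in the RPE (Timp1 and Mmp3), none was higher and 8 did not pass. Among these 8, Timp3 was saturated in both tissues, so that its difference between RPE and CH could not be judged. A member counted as higher or lower at a fold change (FC) above 2.5 with a Benjamini-Hochberg adjusted p-value below 0.01 over all probes (limma). By the same rule 13.2% of all genes passed in favour of the CH over the PR and 6.85% the other way, 11.3% in favour of the RPE over the PR and 5.67% the other way. Between CH and RPE, 1.82% passed in favour of the CH and 0.218% in favour of the RPE. The median log2 difference over the 10 members was 2.06 for CH minus PR, 1.16 for RPE minus PR and -0.55 for RPE minus CH, beside -0.05, -0.01 and 0.04 over all probes. The comparisons share arrays, so the counts are not independent of each other.

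**Figure D1:**
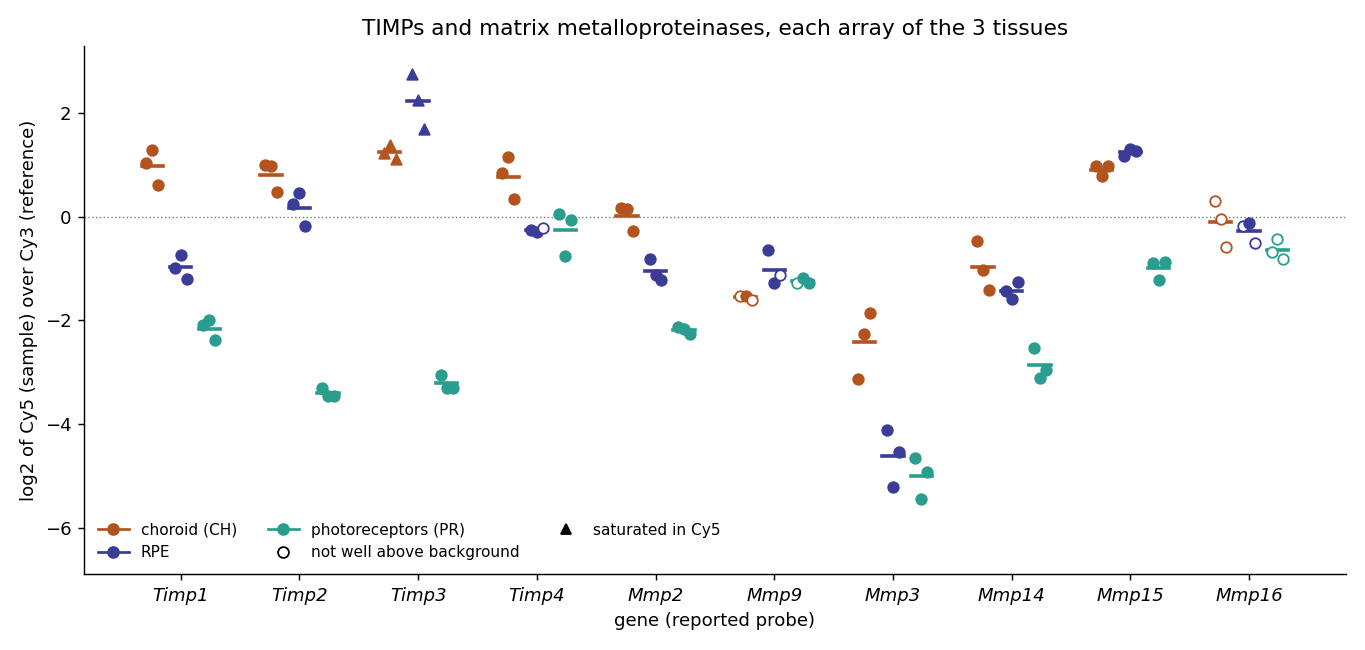
The log2 ratio of Cy5 (sample) over Cy3 (common reference) is plotted for the reported probe of each of the 10 genes, with 1 point for each of the 3 CH, 3 RPE and 3 PR arrays and a bar at the tissue mean. Open points were not well above background and triangles were saturated in Cy5. The PR arrays lay lowest for Timp1, Timp2, Timp3, Mmp2, Mmp14 and Mmp15, without touching the CH or RPE arrays.

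Timp1, an inhibitor of most secreted MMPs, fell in steps from the CH through the RPE to the PR. Its log2 ratio was 1.04, 1.29 and 0.62 on the CH arrays, -0.98, -0.74 and -1.21 on the RPE arrays and -2.10, -1.99 and -2.39 on the PR arrays. All CH arrays were above all RPE arrays, and all RPE arrays were above all PR arrays. The RPE was lower than the CH by 3.89-fold (log2 difference -1.96, SE 0.19, adjusted p = 0.000201), and the CH was higher than the PR by 8.83-fold (adjusted p = 3.94e-07). The RPE exceeded the PR by 2.27-fold (log2 difference 1.18, SE 0.19, adjusted p = 0.000465), which is below the FC threshold. RPE minus CH was -1.93 on slide 1, with 2 arrays of each, and -2.03 on slide 2, with 1 of each. The probe lies at chrX:20451802-20451861 (mm9).

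On average, fibroblast markers moved the same way as Timp1, and so did markers of several other cell types. Of 10 fibroblast markers, such as collagen and decorin genes, 8 were lower in the RPE against the CH, and against the PR 8 were higher in the RPE and 9 in the CH. Their mean log2 ratio was 0.69 to 1.02 on the CH arrays, -1.13 to -0.83 on the RPE arrays and -4.07 to -3.74 on the PR arrays, and at least 9 of the 10 were well above background on each array. Their summed Cy5 signal was 971315 to 1103043 in the CH, 300660 to 407262 in the RPE and 56655 to 66467 in the PR. The decorin gene Dcn was saturated in Cy5 on all CH arrays, so the sum in the CH is a lower limit. Of 9 macrophage and neutrophil markers 1 was lower in the RPE against the CH, and of 8 pericyte and smooth muscle markers 2 were. Of 8 melanocyte markers 3 were lower, and of 8 Müller glia markers 1 was higher and 1 lower. The higher Müller glia marker was Rlbp1, which is also among the RPE markers counted above. The mean log2 ratio of melanocyte markers was 0.33 to 0.67 in the CH, -0.63 to -0.24 in the RPE and -3.88 to -3.61 in the PR. For pericyte and smooth muscle markers it was 1.07 to 1.71, 0.40 to 0.69 and -2.49 to -2.34. For macrophage and neutrophil markers it was -0.47 to 0.04, -0.93 to -0.58 and -2.70 to -2.40. Single markers of these lists went the other way between RPE and CH at their brightest probe, none of them called. RPE minus CH was 0.68 at Tyr, 0.53 at Csf1r, 0.41 at S100a9, 0.28 at Dpt and 0.05 at Itgam. Tyr, from the melanocyte list, is also named by the study among well-established RPE genes. Müller glia markers overlapped between CH and RPE. The part of these cells in the values of Timp1 and of the other members was not tested.

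Timp2, which both inhibits MMPs and helps to activate Mmp2, gave a bright signal in CH and RPE and a much lower one in the PR. At the brighter probe A_52_P540219 the log2 ratio was 0.99, 0.98 and 0.48 in the CH, 0.25, 0.45 and -0.17 in the RPE and -3.30, -3.45 and -3.46 in the PR. The RPE exceeded the PR by 11.95-fold (log2 difference 3.58, SE 0.18, adjusted p = 1.71e-07) and the CH exceeded the PR by 18.6-fold (4.22, SE 0.18, adjusted p = 4.18e-08). The CH and RPE arrays did not overlap, but the difference of -0.64 (95% interval -1.05 to -0.23, adjusted p = 0.0312) did not pass.

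Among all probes ranked by the Cy5 signal, this Timp2 probe stood at percentile 97.96 ± 0.57 (SD, n = 3) in the RPE, with 97.94, 98.55 and 97.41 on the single arrays. A percentile ranks spots, whose brightness also depends on the probe. The probe stood at 98.77 in the CH and at 86.69 in the PR. The other Timp2 probe stood at 84.46 in the RPE, at 83.84 in the CH and at 69.48 in the PR. The position of Timp2 in the highest decile of the RPE therefore held at 1 of its 2 probes.

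The 2 probes of Timp2 also differed in how they separated the tissues. At A_65_P12392 the log2 ratio was -0.70, -0.87 and -1.23 in the CH, -0.85, -0.71 and -0.87 in the RPE and -2.99, -3.12 and -2.95 in the PR. Here the CH and RPE arrays overlapped (RPE minus CH 0.12, 95% interval -0.17 to 0.42, adjusted p = 0.574), while the RPE exceeded the PR by 4.64-fold (adjusted p = 5.17e-07) and the CH exceeded the PR by 4.25-fold (adjusted p = 5.95e-07). The call against the PR was thus the same at both probes, and the size was not.

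Taken array by array, the log2 ratio of A_52_P540219 minus that of A_65_P12392 was 1.70, 1.85 and 1.71 in the CH, 1.10, 1.17 and 0.70 in the RPE and -0.31, -0.33 and -0.50 in the PR. The means were 1.75 ± 0.08, 0.99 ± 0.25 and -0.38 ± 0.11 (SD, n = 3 each), and no tissue overlapped with another. The Cy3 reading at A_52_P540219 also changed between tissues, as given below. With the Cy5 channel alone, the difference between the probes was -0.57 for RPE minus CH, 1.16 for RPE minus PR and 1.72 for CH minus PR. An exact permutation test of the spread between the 3 tissues over all 1680 allocations of the arrays gave p = 0.00357, the smallest p it can give. Between any pair of tissues the exact two-sided permutation p was 0.1, again the smallest that 3 against 3 arrays allow. This comparison was made after the values had been seen, so these p-values cannot count as support for a difference between the probes. The samples were labelled from the 3′ end, and RNA length along the gene was not measured. The study's methods give RNA integrity numbers whose ranges overlapped between the tissues and reached highest in the PR. The part of RNA integrity in the difference between the probes was not tested.

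**Figure D2:**
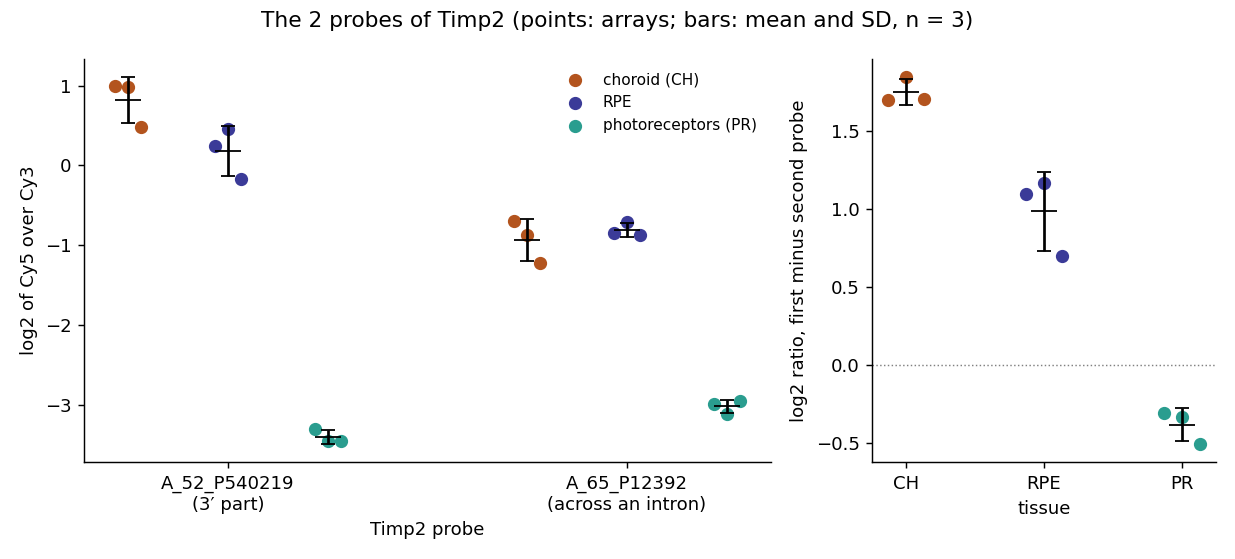
Left, the log2 ratio of Cy5 over Cy3 at each of the 2 Timp2 probes, and right, the difference between the probes (A_52_P540219 minus A_65_P12392), with 1 point for each array and bars for the mean and SD of 3 arrays. At the left probe CH and RPE both lay near or above 0, at the other probe both lay near -0.9, and the difference between the probes fell from 1.75 in the CH to 0.99 in the RPE and -0.38 in the PR.

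Timp3, the inhibitor that is bound to the matrix, reached the upper limit of the scanner in CH and RPE. Its log2 ratio was 1.24, 1.38 and 1.12 in the CH, 2.76, 2.27 and 1.70 in the RPE and -3.05, -3.30 and -3.30 in the PR. The spot was saturated in Cy5 on all 3 CH and all 3 RPE arrays, so no fold between RPE and CH is given. Against the PR, the Cy5 signal of Timp3 in the RPE was higher by at least 7.79-fold (adjusted p of the fit 4.72e-08) and in the CH by at least 7.29-fold (adjusted p of the fit 1.17e-07). Its percentile was 99.95 in the RPE, 99.86 in the CH and 94.23 in the PR, so that Timp3 lay in the highest decile of all 3 tissues.

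The reference channel at Timp3 was not constant, although the same reference RNA was on every array. Relative to each array's median, log2 Cy3 at Timp3 was 6.83, 6.63 and 6.68 on the CH arrays, 5.62, 5.85 and 6.41 on the RPE arrays and 8.62, 8.79 and 8.62 on the PR arrays. It was highest on the arrays where the sample was lowest. Its SD over the 9 arrays was 1.23, at percentile 99.39 of all probes, beside a median of 0.23 over all probes and of 0.31 among the brightest 1% in Cy3.

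Timp2 showed a smaller shift of the same kind. At A_52_P540219 the log2 Cy3 was 6.15, 6.37 and 6.21 in the CH, 6.44, 6.44 and 6.59 in the RPE and 7.31, 7.51 and 7.21 in the PR. The log2 ratios at these bright probes therefore hold a change of the reference reading besides that of the sample. With the Cy5 channel alone, at this Timp2 probe RPE minus PR was 2.98 in place of 3.58 and CH minus PR was 3.44 in place of 4.22, and both still passed. At Timp3 saturation leaves only the lower limits given above. What moves the reference reading was not tested. At the other Timp2 probe and at the remaining members the SD of log2 Cy3 was 0.11 to 0.26.

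Timp4 was read close to background. Its log2 ratio was 0.85, 1.15 and 0.34 in the CH, -0.25, -0.29 and -0.21 in the RPE and 0.06, -0.75 and -0.06 in the PR, and it was well above background on 3, 2 and 3 of these arrays. The CH arrays lay above all others. The difference did not pass against the RPE (RPE minus CH -1.03, 95% interval -1.56 to -0.50, adjusted p = 0.0124) or, at 2.04-fold, against the PR (adjusted p = 0.00415). RPE and PR overlapped, and their difference lay between -0.53 and 0.53 (95% interval). Within slides, RPE minus CH was -0.82 and -1.44, and CH minus PR was 1.90 on slide 2. With the slide as a fixed block CH minus PR was 1.69 (adjusted p = 0.00125) and with the Feature Extraction processed signals it was 1.36 (adjusted p = 0.00623), and Timp4 was then called higher in the CH.

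The gelatinases Mmp2 and Mmp9 cut denatured collagen and the collagen of basement membranes. Mmp2 followed the order of Timp1 with smaller steps. Its log2 ratio was 0.17, 0.15 and -0.28 in the CH, -0.81, -1.13 and -1.22 in the RPE and -2.13, -2.17 and -2.25 in the PR, with no overlap between tissues. The CH exceeded the PR by 4.60-fold (log2 difference 2.20, SE 0.15, adjusted p = 8.32e-07). The RPE lay between them, below the CH by 2.09-fold (adjusted p = 0.00109) and above the PR by 2.20-fold (adjusted p = 0.000114), and neither step reached the FC threshold.

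Mmp9, the gelatinase of neutrophils and macrophages, was close to background in all tissues and showed no called difference. The array carries its probe on 10 spots, so the error within an array could be measured. The mean over the spots kept was -1.53, -1.52 and -1.60 in the CH, -0.64, -1.29 and -1.13 in the RPE and -1.27, -1.17 and -1.27 in the PR. The SD over the spots of 1 array was 0.05 to 0.18. This is the error of repeat spots and leaves out the spread between eyes. The 9 kept spots of RPE replicate 1 lay between -0.69 and -0.52, and the highest kept spot of the other RPE arrays was at -0.96. Over arrays, RPE minus CH was 0.53 (95% interval 0.20 to 0.87, adjusted p = 0.0293), and the CH arrays lay below all others. The probe was well above background on 1 CH, 2 RPE and 2 PR arrays only. Without RPE replicate 1, RPE minus CH at Mmp9 was 0.34 (adjusted p = 0.0531).

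**Figure D3:**
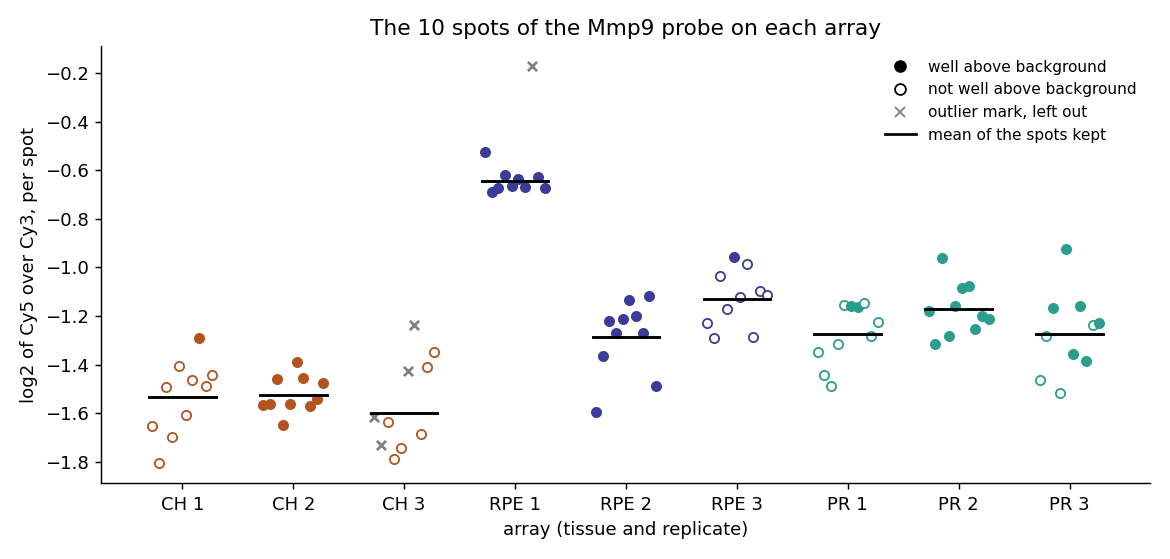
Each point is 1 of the 10 spots of the Mmp9 probe on 1 array, as the log2 ratio of Cy5 over Cy3, with the mean of the spots kept as a bar. Filled points were well above background, open points were not, and crosses mark the 5 spots left out as outliers. The spots of RPE 1 lay together above those of all other arrays.

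Mmp3, a stromelysin with a wide range of matrix substrates, separated the CH from both inner layers. Its log2 ratio was -3.12, -2.26 and -1.86 in the CH, -4.11, -5.21 and -4.54 in the RPE and -4.66, -5.44 and -4.93 in the PR. The RPE was lower than the CH by 4.61-fold (log2 difference -2.20, SE 0.36, adjusted p = 0.00234) and the CH exceeded the PR by 6.04-fold (2.59, SE 0.36, adjusted p = 0.000152). RPE and PR overlapped (RPE minus PR 0.39, 95% interval -0.41 to 1.20, adjusted p = 0.408). The spread between the CH arrays was the largest of any member in any tissue (SD 0.64), and without CH replicate 2 the call against the RPE was lost (adjusted p = 0.0120). Within slides, RPE minus CH was -1.83 and -2.95.

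All 9 arrays read Mmp3 below the reference. The reference was made of RPE/choroid RNA, and with a single dye orientation the sign of a ratio against 0 also carries the difference between the dyes. Mmp9 and Mmp14 were likewise below 0 on all 9 arrays, whereas Mmp15 was above 0 on every CH and RPE array. In spite of its low ratio, Mmp3 stood at percentile 82.06 ± 5.82 in the CH by the Cy5 signal, and at 63.65 ± 2.38 in the RPE and 62.77 ± 1.46 in the PR (SD, n = 3 each).

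The membrane-type MMPs differed among themselves. Mmp14, the main activator of Mmp2, had a log2 ratio of -0.47, -1.02 and -1.41 in the CH, -1.44, -1.59 and -1.26 in the RPE and -2.53, -3.11 and -2.96 in the PR. CH and RPE overlapped (RPE minus CH -0.46, 95% interval -0.97 to 0.06, adjusted p = 0.200) and both lay above the PR, the CH by 3.72-fold (adjusted p = 5.98e-05) and the RPE by 2.71-fold (log2 difference 1.44, SE 0.23, adjusted p = 0.000474). The RPE call was close to the FC threshold and was lost without PR replicate 2 (log2 difference 1.32), with the slide as a fixed block (1.57, adjusted p = 0.0102) and with the Cy5 channel alone (1.26).

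Mmp15, a membrane-type MMP related to Mmp14, had the smallest SE of the members in the fit (0.12). Its log2 ratio was 0.97, 0.78 and 0.98 in the CH, 1.17, 1.30 and 1.26 in the RPE and -0.90, -1.22 and -0.87 in the PR. The RPE exceeded the PR by 4.73-fold (log2 difference 2.24, SE 0.12, adjusted p = 2.05e-07) and the CH exceeded it by 3.76-fold (1.91, SE 0.12, adjusted p = 4.45e-07). Mmp15 was the called MMP for which the RPE arrays lay above the CH arrays, by a difference of 0.33 (95% interval 0.07 to 0.59) that did not pass (adjusted p = 0.0718). Mmp16 was not well above background on any CH or PR array and was so on 1 RPE array only, RPE replicate 2. That array read 91.7% of all probes well above background, and its Mmp16 signal stood at percentile 9.36 only. The Mmp16 log2 ratios of -0.81 to 0.31 therefore give no order of the tissues.

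**Figure D4:**
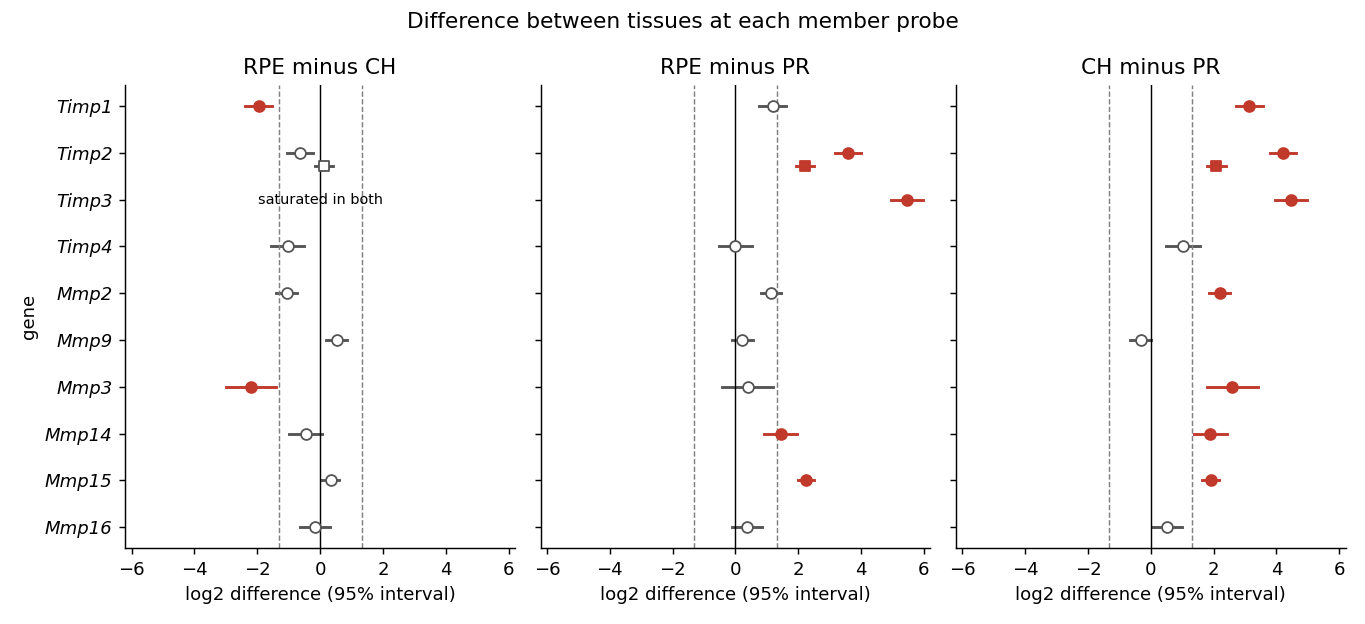
The log2 difference and its 95% interval are plotted for each member probe in RPE minus CH, RPE minus PR and CH minus PR, with filled red symbols for calls, squares for the probe A_65_P12392 of Timp2 and dashed lines at an FC of 2.5 in either direction. In RPE minus CH the calls were Timp1 and Mmp3, both to the left, and all calls against the PR lay to the right. Timp3 is left out of the first panel because both tissues were saturated, and in the other panels its fitted value rests on a saturated tissue.

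At the reported probe the arrays of the compared tissues did not overlap for 8 of 10 members between RPE and CH, 6 of 10 between RPE and PR and 9 of 10 between CH and PR. The same held for 39%, 58.8% and 62.4% of all genes. In the RPE minus CH comparison these 8 included Timp3, whose values were at saturation, and Mmp9, which was near background.

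The rest of the MMP family was near background in good part. Of 17 other MMP genes, 7 to 9 were well above background on the CH arrays, 6 to 13 on the RPE arrays and 5 to 9 on the PR arrays. The count of 13 was that of RPE replicate 2. In the CH against the PR 4 of the 17 were higher and none lower, beside 13.2% of all genes higher. Among them was Mmp11, by 5.59-fold (adjusted p = 1.72e-07). Mmp12, the macrophage elastase, was another, named here after its value was seen. Its call rested on a dim probe that was well above background on 1 CH and no PR array, while at its brighter probe CH minus PR was 1.16 and was not called. Mmp8, the collagenase of neutrophils, and Mmp27 were not well above background on any PR array and were at least 2.25-fold and at least 2.33-fold higher in the CH, respectively. In the RPE against the PR 1 of the 17 was higher, Mmp11 by 3.38-fold (adjusted p = 2.36e-06), beside 11.3% of all genes. Against the CH 1 of the 17 was lower in the RPE, beside 1.82% of all genes. It was Mmp27, which was not well above background on any RPE array (at least 2.48-fold). A second Mmp27 probe, well above background on 1 RPE array only, was not called in any comparison. The median log2 difference of these 17 genes was -0.08, 0.12 and 0.09 for RPE minus CH, RPE minus PR and CH minus PR.

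ADAM and ADAMTS proteases, which shed proteins from the cell surface and cut matrix proteoglycans and procollagens, are also targets of TIMPs, of Timp3 in particular. Of 28 genes, against the PR 13 were higher and 1 was lower in the CH, and 8 were higher and 1 was lower in the RPE. Over all genes, 13.2% were higher and 6.85% lower in the CH, and 11.3% higher and 5.67% lower in the RPE. The CH calls of Adam33 and Adamts17 rested on their dimmer probe. At the brighter probe CH minus PR was 0.99 for Adam33 and -0.24 for Adamts17, neither called. Adamts2, a procollagen-processing enzyme, exceeded the PR by 25.0-fold in the CH (adjusted p = 6.96e-09) and by 6.53-fold in the RPE (adjusted p = 2.46e-07), with 2 of 3 PR arrays well above background. In the RPE it was below the CH by 3.82-fold (adjusted p = 8.59e-05), as were Adam8 by 3.64-fold and Adam19 by 2.51-fold. These were the 3 genes of the list called in that comparison, beside 1.82% of all genes lower in the RPE. Adam15 exceeded the PR by 11.7-fold in the CH and 5.76-fold in the RPE, and Adam19 by 12.6-fold in the CH. Adamts7 was not well above background on any PR array and exceeded the PR at least 3.12-fold in the RPE. Adamts3 went the other way: it was below the PR in the RPE by 3.58-fold (adjusted p = 1.04e-05), where 1 of 3 arrays read it well above background, and was at least 2.62-fold lower in the CH, where no array read it well above background. A second Adamts2 probe, well above background on 1 CH, 1 RPE and 2 PR arrays, showed no called difference. The median log2 difference of the list was -0.33 for RPE minus CH, 0.35 for RPE minus PR and 1.00 for CH minus PR.

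Of 18 activators and other regulators of MMPs, 12 were higher in the RPE and 12 in the CH, each against the PR, with none lower. The shares of all genes that were higher were 11.3% in the RPE and 13.2% in the CH. Reck, a membrane protein that inhibits several MMPs, was higher by 18.1-fold in the CH (adjusted p = 2.89e-09) and by 9.36-fold in the RPE (adjusted p = 1.55e-08) at its brighter probe. At its other probe, well above background on all arrays, CH minus PR was -0.06 and RPE minus PR was -0.03, so the probes of Reck disagreed. Thbs1, a matrix glycoprotein, was higher by 50.8-fold in the CH and by 62.4-fold in the RPE, Lrp1, an uptake receptor for MMPs and TIMPs, by 6.91-fold in the RPE, and the protease inhibitor Serpine2 by 12.4-fold in the CH. The median log2 difference of the list was -0.50 for RPE minus CH, 1.503 for RPE minus PR and 1.85 for CH minus PR.

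The genes whose log2 ratios ran most like those of a TIMP over the 9 arrays were found by the root mean square distance after each gene was centred on its own mean. For Timp1 these were Mfap5, a protein of microfibrils (0.12), Gfra3, a receptor of the GDNF family (0.13), and Chil1, a chitinase-like protein (0.15). For Timp2 at its brighter probe they were the adhesion receptor Adgre5 (0.12), the adaptor She (0.14) and Gm5637 (0.17). For Timp3 the nearest genes were Gm4907, Gm4788 and Tgfbr3, a co-receptor of TGF-beta, at larger distances of 0.32 to 0.33, and they run beside a saturated signal. For Timp4 they were Ms4a6c, the follistatin-like Fstl3 and the phosphatase Ptpn18 (0.16 to 0.18). These distances were taken from 17937 candidate genes for Timp1, Timp2 and Timp3 and 18883 for Timp4 and are given as a description.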

How the data were processed

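The authors scanned the two-colour arrays and processed them with Agilent Feature Extraction 9.5.3.1, and analysed them in R 2.14.0 with limma per the labels. The deposited scanner files hold intensity values of the Cy5 and Cy3 channels per spot and a log10 ratio of red over green, and the deposited series table holds the authors' log2 expression values, which follow the Cy5 channel and hold no value for Timp3 in CH and RPE; log ratio and table served as alternatives. Probe coordinates are those of the file design (mm9).

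Here, mean and background intensities were corrected with normexp (offset 50) and then loess-normalized array by array. Of 44397 spots 43020 were not controls; controls and outlier marks had weight 0. Spots of a probe were averaged, and limma 3.58.1 (R 4.3.3) was fitted to all 9 arrays with a mean for each tissue, with Benjamini-Hochberg adjustment over 39429 probes. On simulated data with independent errors the fit recovered most of the changes it was given, all of them above the FC threshold. A gene was called at 1 or more probes, and its reported probe was the brightest in Cy5 after loess and Aquantile scaling; percentiles and "at least" folds use this scale. A dim group's level for such a fold was, on each array, the higher of the probe's own signal and the lowest signal among probes well above background. Named from the other lists were up to 3 called genes for each direction and comparison by fold. The members, lists and rules were chosen with earlier results of these data known. The labels name separate samples and the methods 1 eye for each, so p-values measure the spread between eyes, which may come from few animals. The number of arrays limits the precision. Slide and scan coincide. Promoters are from RefSeq (GRCm38.p6). Exact permutation tests used scipy 1.17.1 and Python 3.11.15. The comparison of RPE and CH for single genes of the list of activators and regulators is not reported here.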

Additional observations from a re-analysis of the deposited data

How the results depend on the processing

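The member calls were recomputed under 28 alternatives. Of RPE against CH, 2 genes were called, 1 with the series table (Timp1 alone) and 3 with median centring or an FC above 2, which added Mmp2; leaving out 1 array at a time gave 1 to 2, with 1 without CH replicate 2. RPE against PR ranged from 3 to 6 and CH against PR from 6 to 8 (3 to 4 and 7 to 7 with 1 array left out). With saturated spots left out, which was chosen after seeing the data, the counts were 2, 3 and 6, since Timp3 then has no value in CH and RPE. The Timp2 percentile in the RPE was 96.7 when only probes that every RPE array read well above background were ranked, and 97.7 to 98.2 without 1 array.

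Small differences that did not pass changed sign. In RPE minus CH, Timp2 at A_65_P12392 was -0.15 with median centring and -0.022 to 0.24 with 1 array left out (below 0 without CH replicate 3), and Mmp16 was -0.41 to 0.042 (above 0 without CH replicate 1). In RPE minus PR, Timp4 was -0.0323 with the Feature Extraction log ratio, -0.144 with Cy5 alone, -0.0295 with the series table, -0.00258 with outlier spots kept and -0.249 to 0.154 with 1 array left out (below 0 without RPE replicate 3 or PR replicate 2). With Cy5 alone Mmp3 was -0.0869 and Mmp9 -0.111. The cause was not tested. The difference between the Timp2 probes kept its sign in all alternatives; RPE minus PR, it was 1.37 and ranged down to 0.96 with the series table.

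Correlations between the deviations of same-numbered arrays were -0.08 to 0.29, with all pairs of replicate 2, which share slide 2, at 0.16 to 0.29 and all pairs of replicate 1 below 0. Not every pair was above 0.1, so the numbers were not taken as pairs. With the replicate number as a block the counts were 2, 4 and 7, as without the replicate block.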
